A study of Mus musculus with 2 samples.

Results

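The genes described here are 7 microRNA genes that sit inside introns of 3 protein-coding genes, Htr2c and Trpm3 being known from the choroid plexus. Mir448, Mir764, Mir1264, Mir1298 and Mir1912 lie in Htr2c, Mir204 lies in Trpm3 and Mir211 lies in Trpm1. They were taken by name from a list that uses no threshold on their levels but was drawn up with earlier results of these data known, and all 7 of 7 were found among the 2202 microRNA genes counted. The counts come from microRNA-seq of tissue labelled as layer of hippocampus from B6CASTF1/J female mice at 10 days of age. Both libraries belong to 1 group, and each label names its own set of 3 females, so the values of a library average over those animals. The hybrid genotype, the sex, the age and the tissue are shared by both libraries, no treatment is named, and no other condition is there to compare with.

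The choroid plexus is the epithelium that secretes cerebrospinal fluid into the brain ventricles, and it lies against the hippocampus along the lateral ventricle. Htr2c encodes a serotonin receptor that is abundant in this epithelium and is also made by some neurons. Trpm3 encodes a cation channel known from choroid plexus, retina and some neurons, and Trpm1 a channel known from melanocytes and retinal bipolar cells. An intronic microRNA is cut as a hairpin from the unspliced transcript of its host gene, and a mature strand of about the length sequenced here then guides the silencing complex through its seed. In the pigment epithelium of the eye, miR-204 and miR-211 are known as microRNAs that help to maintain the epithelial state. The labels name a layer of hippocampus, without saying which, and do not say whether choroid plexus was kept or removed. The counts cover microRNA genes only, so the part of choroid plexus cells in the values below was not tested.

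RefSeq gives 12 mature sequences for the 7 genes, with both arms for 5 genes and the 3' arm alone for Mir1264 and Mir1912. They are shown because the seed, bases 2 to 8 in capitals, is what separates the microRNAs of Htr2c from each other and joins Mir204 to Mir211. The sequences are from RefSeq on GRCm38.p6, written 5′ to 3′.
mmu-miR-1298-5p: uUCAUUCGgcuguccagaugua
mmu-miR-1298-3p: cAUCUGGGcaacugauugaacu
mmu-miR-448-5p: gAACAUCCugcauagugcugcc
mmu-miR-448-3p: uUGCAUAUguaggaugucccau
mmu-miR-1264-3p: cAAAUCUUauuugagcaccugu
mmu-miR-764-5p: gGUGCUCAcauguccuccu
mmu-miR-764-3p: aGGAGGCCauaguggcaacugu
mmu-miR-1912-3p: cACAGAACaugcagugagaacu
mmu-miR-204-5p: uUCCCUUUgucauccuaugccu
mmu-miR-204-3p: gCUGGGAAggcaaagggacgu
mmu-miR-211-5p: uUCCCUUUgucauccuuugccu
mmu-miR-211-3p: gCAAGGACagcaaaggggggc

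The 12 mature sequences carry 11 different seeds. The microRNAs of Htr2c share a host but no seed, since each of their 8 mature sequences has a seed of its own. The seed UCCCUUU is the only one that the 7 genes share, and it stands in miR-204-5p and miR-211-5p. These 5' arms are identical at 21 of 22 bases and differ by A17U, with miR-204-5p given first and positions counted from 1 at the 5' end. The 3' arms of Mir204 and Mir211 are identical at 14 of 21 bases and have different seeds. Among all 1738 RefSeq mature sequences of the mouse, the seed UCCCUUU was also found in miR-7670-3p, whose gene Mir7670 had 1 count in replicate 1 and 0 in replicate 2. The seed of miR-764-3p was shared with miR-7062-5p, whose gene Mir7062 had 10 and 4 counts. The seed of miR-204-3p was shared with miR-7684-5p, whose gene had 0 counts in both libraries.

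The hairpins of Mir1298, Mir204 and Mir211 are given in full because they carry the highest levels and the closest pair of sequences. Capitals mark the mature arms, and the sequences are from RefSeq on GRCm38.p6.
Mir1298: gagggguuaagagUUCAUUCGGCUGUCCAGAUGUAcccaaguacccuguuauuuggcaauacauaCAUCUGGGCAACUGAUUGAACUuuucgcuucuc
Mir204: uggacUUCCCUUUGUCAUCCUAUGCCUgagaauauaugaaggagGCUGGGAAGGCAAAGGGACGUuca
Mir211: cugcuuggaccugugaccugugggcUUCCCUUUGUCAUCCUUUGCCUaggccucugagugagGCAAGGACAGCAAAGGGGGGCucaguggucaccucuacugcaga

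A read with more than 1 matching place in the genome was assigned to no gene, and such reads made up 43.2% of the total in replicate 1 and 39.3% in replicate 2. The longest stretch that Mir204 and Mir211 share is 17 nt, and neither shares a longer one with any other microRNA gene. For the microRNAs of Htr2c, the longest stretch shared with any of the other 2201 microRNA genes, on either strand, was 12 nt for Mir1264, Mir1298 and Mir1912 and 13 nt for Mir448 and Mir764. These stretches are shorter than each mature sequence, while matches elsewhere in the genome were not tested. The reads are counted per gene, so which arm a read came from is not known.

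The genes are spread over 3 host genes on the plus strand of GRCm38 (mm10), with positions from the GENCODE M21 annotation. Htr2c spans 235 kb of chromosome X (146962513 to 147197277). Its principal transcript Htr2c-201 has 6 exons. Mir764 (147002259 to 147002366), Mir1912 (147009441 to 147009527), Mir1264 (147010601 to 147010686) and Mir1298 (147064905 to 147065002) lie in its intron 2, which is 90.8 kb long. Mir448 (147158210 to 147158321) lies in intron 4, which is 93.5 kb long. Mir1912 and Mir1264 are the closest neighbours, 1.07 kb apart, and Mir1298 stands 54.2 kb downstream of Mir1264 and 93.2 kb upstream of Mir448. Mir204 (chromosome 19, 22750605 to 22750672) lies in intron 6 of Trpm3 (transcript Trpm3-203), and Mir211 (chromosome 7, 64205806 to 64205911) lies in intron 6 of Trpm1 (transcript Trpm1-201). No annotated gene overlaps any of the 7 on the opposite strand, and all 7 had 0 antisense counts in both libraries.

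Replicate 1 held 5479267 sense counts on microRNA genes and replicate 2 held 3563226. Levels are sense counts per 1000000 such counts (CPM). With reads of about the same length from each mature strand, CPM of microRNA genes needs no scaling for gene length. Different sequences may enter a library with different efficiency, which was not tested. Comparisons between genes are therefore comparisons of counts. A bias shared by both libraries would show in neither the SD nor the intervals below. Means are given with the SD of 2 libraries. Intervals are exact Clopper-Pearson intervals at 95% and cover counting error alone, because PCR copies of a molecule cannot be told from separate molecules without molecular identifiers. Nothing but the sets of animals in the labels says how the libraries were kept apart, so part of their spread may be technical. In a bulk tissue sample, fewer cells of a type and less RNA per cell cannot be told apart.

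Mir1298 and Mir204 were the abundant members, and the other 5 were far below them. Mir1298 had 7941 counts in replicate 1 and 5067 in replicate 2, or 1449 CPM (interval 1418 to 1481) and 1422 CPM (interval 1383 to 1462). Mir204 had 7105 and 5549 counts, or 1297 CPM (interval 1267 to 1327) and 1557 CPM (interval 1517 to 1599). Mir1298 was the higher of the pair in replicate 1, where the ratio of Mir1298 to Mir204 was 1.12, and Mir204 was the higher in replicate 2, where it was 0.913. Their means, 1436 ± 19.3 CPM for Mir1298 and 1427 ± 184 CPM for Mir204 (SD, n = 2), did not differ beyond the spread between the libraries. They ranked 94 and 96 among the 2202 genes by mean level. Reads with more than 1 matching place were left out, so genes with copied sequence may rank too low and Mir1298 and Mir204 too high. Together Mir1298 and Mir204 held 94.6% of the counts of the 7 genes in replicate 1 and 92.8% in replicate 2.

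Below this pair came a step of 14.3-fold in mean level to Mir448. Mir448 had 477 counts in replicate 1 and 402 in replicate 2, or 87.1 and 113 CPM. Mir1264 had 212 and 259 counts, or 38.7 and 72.7 CPM. Mir764 had 149 and 119 counts, or 27.2 and 33.4 CPM. The order Mir448, Mir1264, Mir764 held in both libraries, and the values of the 2 libraries did not overlap between neighbours of this order. The gap between the lowest value of Mir1264 and the highest of Mir764, 38.7 and 33.4 CPM, was small, and the intervals of Mir1264 in replicate 1 (33.7 to 44.3 CPM) and Mir764 in replicate 2 (27.7 to 39.96 CPM) overlapped.

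Mir1912 and Mir211 had few counts. Mir1912 had 6 counts in replicate 1, or 1.10 CPM (interval 0.402 to 2.38), and 42 counts in replicate 2, or 11.8 CPM (interval 8.50 to 15.9). Mir211 had 15 and 6 counts, or 2.74 CPM (interval 1.53 to 4.52) and 1.68 CPM (interval 0.618 to 3.67). Mir1912 was lower than Mir211 in replicate 1 and higher in replicate 2, so their order was not resolved. The limit that 0 counts would set, 3 counts per library, was 0.548 CPM for replicate 1 and 0.842 for replicate 2, and all 7 genes stood above it in both libraries.

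**Figure D1:**
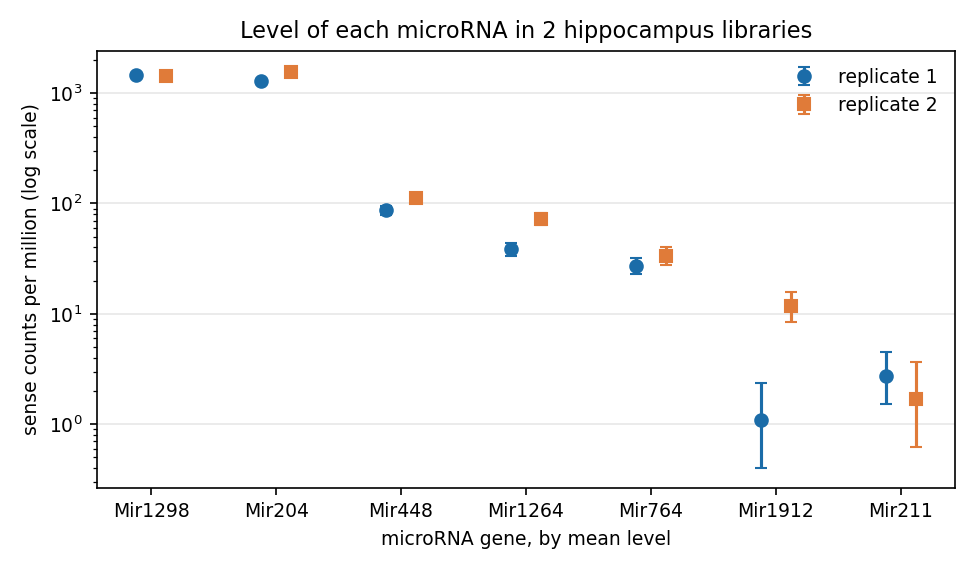
The level of each microRNA gene is plotted in sense CPM on a log axis, with circles for replicate 1, squares for replicate 2 and bars for the 95% Clopper-Pearson interval of each library. Mir1298 and Mir204 stand between 1297 and 1557 CPM, Mir448, Mir1264 and Mir764 between 27.2 and 113 CPM, and the libraries stand farthest apart for Mir1912.

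Detection was called at 10 or more counts in each library. By this rule 5 of the 7 genes were detected, where 19.5% of all 2202 microRNA genes were. Mir1912 fell short in replicate 1 and Mir211 in replicate 2. At 1 count in each library all 7 passed, and at 100 counts in each library the same 5 did. Since the list was drawn up for genes with a known tissue, its share is a description and not evidence of enrichment.

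The near-identical 5' arms of Mir204 and Mir211 came with very unequal counts. There were 474 counts of Mir204 for each count of Mir211 in replicate 1 and 925 in replicate 2, and these ratios rest on 15 and 6 counts of Mir211. Almost all reads assigned to genes with the seed UCCCUUU were therefore those of Mir204. Since the 5' arms differ by 1 base, some counts of Mir211 could be misread Mir204, which was not tested. The 7 genes together held 0.290% of the sense counts in replicate 1 (interval 0.286 to 0.295) and 0.321% in replicate 2 (interval 0.315 to 0.327). The 5 microRNAs of Htr2c held 0.160% and 0.165%, and Mir204 with Mir211 held 0.130% and 0.156%. The share of the Htr2c microRNAs was 0.163% ± 0.00349 (SD, n = 2), and the spread between the libraries was wider for Mir204 with Mir211, at 0.143% ± 0.0184.

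Although they share a host gene, the microRNAs of Htr2c were represented very unevenly. Mir1298 held 90.4% of their summed counts in replicate 1 (interval 89.8 to 91.0) and 86.0% in replicate 2 (interval 85.1 to 86.9). Mir448 held 5.43% and 6.83%. Mir1264 held 2.41% and 4.40%, a split that differed between the libraries by more than counting error since the intervals, 2.10 to 2.76 and 3.89 to 4.95, were apart. Mir764 held 1.70% and 2.02%, with overlapping intervals. Mir1912 held 0.0683% and 0.713%. For each count of Mir448 there were 16.6 counts of Mir1298 in replicate 1 and 12.6 in replicate 2, while Mir1912 lay 1324-fold and 121-fold below Mir1298.

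**Figure D2:**
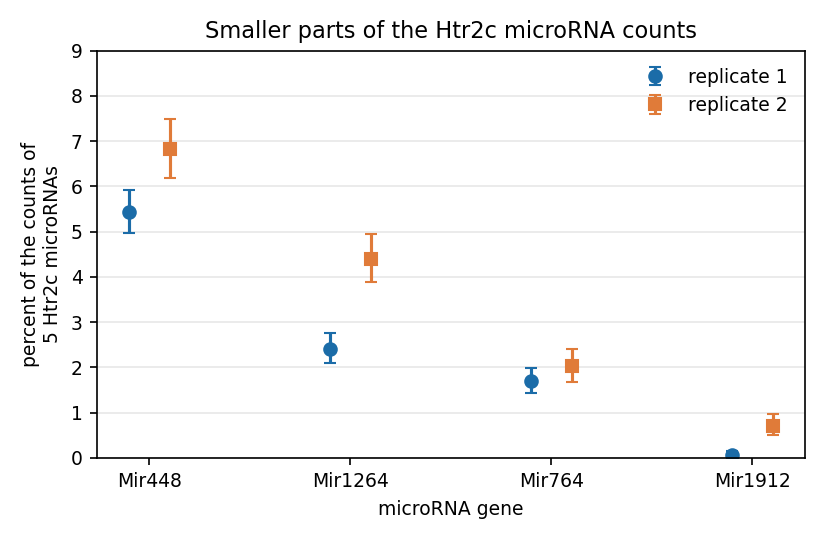
The percent of the summed counts of the 5 Htr2c microRNAs held by Mir448, Mir1264, Mir764 and Mir1912 is plotted for replicate 1 (circles) and replicate 2 (squares), with 95% Clopper-Pearson intervals. All 4 stand higher in replicate 2, and the intervals overlap for Mir764 alone; Mir1298, not drawn, holds the remaining 90.4% and 86.0%.

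Position in the host did not order the levels. The microRNA nearest the start of Htr2c among the 5, Mir764 at 39.7 kb, had a mean of 30.3 CPM. Mir1912 at 46.9 kb and Mir1264 at 48.1 kb are neighbours, yet their means were 6.44 and 55.7 CPM. Mir1298 at 102 kb was the highest, and Mir448 at 196 kb, in a later intron, was the next. GENCODE M21 annotates 2 more microRNA genes within Htr2c on the same strand. Gm22650, at 36.9 kb, had 30 counts in replicate 1 and 27 in replicate 2, or 5.48 and 7.58 CPM, and passed the detection rule that Mir1912 did not. Gm24627, between Mir1298 and Mir448, had 0 counts in both libraries. Mir6416, on the opposite strand of Trpm1, also had 0 counts, and Trpm3 holds no further annotated microRNA gene.

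**Figure D3:**
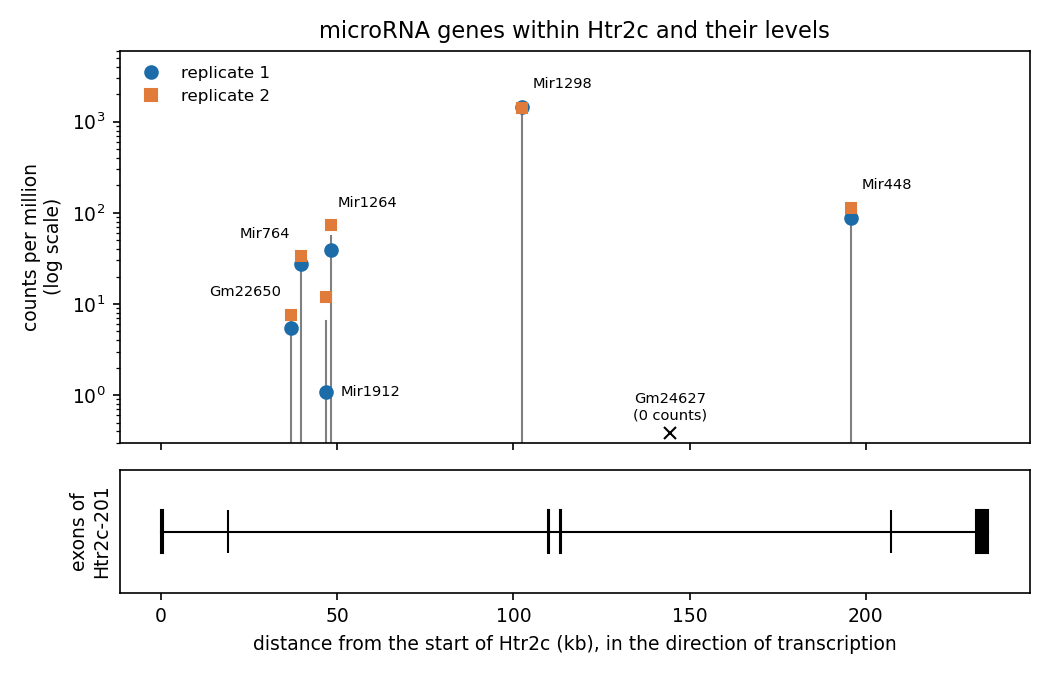
The upper panel plots the level of each microRNA gene within Htr2c in CPM on a log axis against its distance from the start of Htr2c in kb, with circles for replicate 1, squares for replicate 2 and a line up to the mean. The lower panel draws the 6 exons of Htr2c-201 to scale with a minimum line width; Mir1298 at 102 kb stands well above its neighbours, and the cross marks Gm24627, which had 0 counts.

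The predicted minimum free energy of the 7 annotated precursors, computed with RNAfold at its default settings, ran between -33.7 kcal/mol for Mir204 and -57.6 kcal/mol for Mir211. Per nucleotide it was -0.47 kcal/mol for both Mir1298 and Mir1912, whose levels differ most within Htr2c, -0.40 for Mir1264 and -0.54 for Mir211. The median over the 429 detected genes was -0.43 kcal/mol per nucleotide and over all 2202 genes -0.37. GC content was 44.9% for Mir1298, 36.0% for Mir1264, 37.9% for Mir1912 and 57.5% for Mir211, with a median of 50.8% over all genes. In these 7 genes, the most stable hairpin, that of Mir211, went with the lowest mean level. Next most stable per nucleotide was Mir204, at -0.50 kcal/mol, whose mean level was 1427 CPM. A relation of stability to level was not tested.

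The difference between the 2 libraries was tested per gene with a two-sided exact binomial test on the counts against the TMM-scaled library sizes, with Benjamini-Hochberg adjustment over all 429 detected genes. The test compares the 2 libraries and not conditions. Of the 5 detected members, 4 were called at an adjusted p of 0.05, where 61.3% of all detected genes were, so a call is common among genes at this depth. Mir1298 was higher in replicate 1, and Mir204, Mir448 and Mir1264 were lower in it. Mir1264 had the widest difference of the 5, with a log2 ratio of replicate 1 over replicate 2 of -0.85 (exact binomial test, adjusted p = 7.11e-10), and 17.9% of the detected genes had a larger absolute ratio. Mir448 had a log2 ratio of -0.31 (adjusted p = 0.00299, the same exact test). Mir204 had a log2 ratio of -0.20 (adjusted p = 1.85e-14, the same exact test). Mir764, at -0.24 (adjusted p = 0.263, the same exact test), was not called. Mir1298, at 0.09, was called with TMM scaling (adjusted p = 0.00128, exact binomial test) and not with library totals (adjusted p = 0.368), and 86.5% of the detected genes had a larger absolute ratio. The median absolute log2 ratio was 0.24 over the 5 members and 0.33 over all detected genes.

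Mir1912 was outside this test, since replicate 1 held fewer than 10 counts of it. When all 817 genes with a count in either library were tested, of which 35.3% were called, its log2 ratio of replicate 1 over replicate 2 was -3.27 (exact binomial test, adjusted p = 2.02e-10). Of 122 other genes with a summed count between 24 and 96, within a factor of 2 of the 48 counts of Mir1912, 1 had a larger absolute ratio, and their median absolute log2 ratio was 0.53. This range of counts was set after the values of Mir1912 were seen. Mir1264, the next microRNA downstream, was also lower in replicate 1, to a much smaller extent. Mir764, upstream, was lower too, with a log2 ratio of -0.24, but was not called. Farther downstream, Mir1298 was slightly higher in replicate 1 (0.09) and Mir448 lower (-0.31), both called with TMM scaling. Mir211, in the same wider test, had a log2 ratio of 0.69 and was not called (adjusted p = 0.606, exact binomial test).

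**Figure D4:**
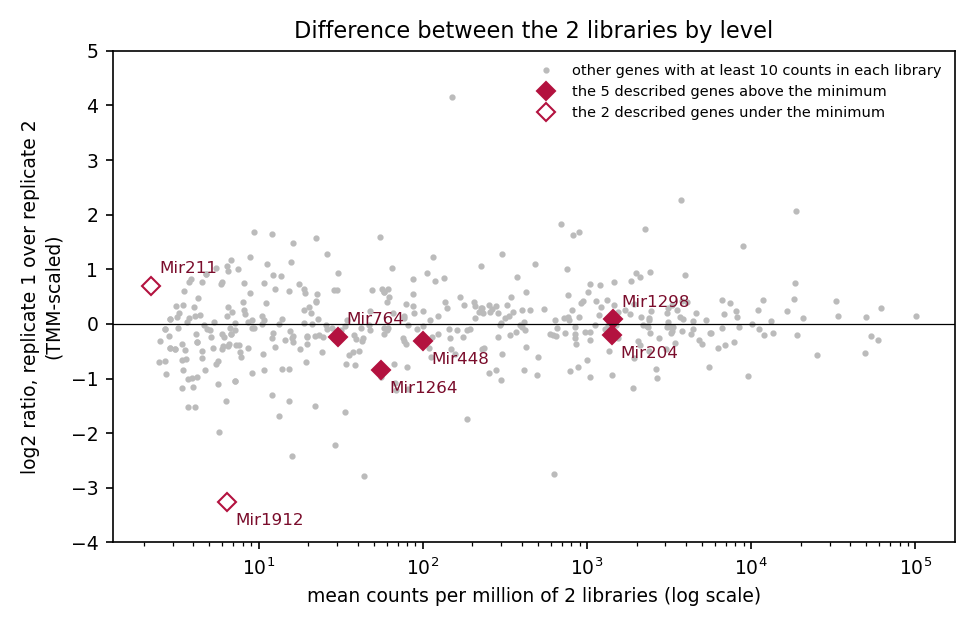
The log2 ratio of replicate 1 over replicate 2 with TMM scaling is plotted against the mean level in CPM on a log axis, with grey points for genes with at least 10 counts in each library, filled diamonds for the 5 described genes above this minimum and open diamonds for the 2 below it. The filled diamonds lie between -0.85 and 0.09, within the cloud of other genes, and Mir1912 lies at -3.27.

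On chromosome X, 40 of 142 microRNA genes were detected, 28.2%, and they held 4.39% of the sense counts in replicate 1 and 4.66% in replicate 2. Mir1298 ranked 9 among these 142, and Mir448, Mir1264, Mir764 and Mir1912 ranked 21, 28, 29 and 40. The leading X-linked gene, Mir652, had a mean of 13206 CPM. Of the 741 microRNA genes in an intron of a protein-coding gene on the same strand, 24.7% were detected, and Mir1298 and Mir204 ranked 34 and 36 among them. Both were thus in the upper part of the intronic genes, and Mir211, at rank 207, was not among the 183 that were detected. These ranks also leave out reads with more than 1 matching place.

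For each detected member, the genes with the most similar levels in the 2 libraries were found by distance on the log2(CPM + 1) scale. With 2 libraries, this likeness says only that the levels, from reads with no more than 1 matching place, are close. Mir1298 stood next to Mirlet7f-2 (1477 CPM in replicate 1, 1380 in replicate 2) and Mir874 (1462 and 1537 CPM). Mir204 stood next to Mir106b (1342 and 1615 CPM) and Mir467d (1259 and 1493 CPM). Mir448 stood next to Mirlet7a-2 and Mir1193, Mir764 next to Mir451a and Mir29b-2, and Mir1264 next to Mir301 and Mir374b. No member was among the nearest 2 of another member.

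Lists of microRNAs known from cell types that lie near the choroid plexus or could be mixed with it were set beside these genes. A list need not be exclusive to its cell type. Whether choroid plexus cells or neurons also make the microRNAs of the multiciliated list was not tested. MicroRNAs of multiciliated cells, which line the ventricles as ependyma, held 0.349% of the sense counts in replicate 1 and 0.315% in replicate 2, against 0.290% and 0.321% for the 7 genes. Of their 5 genes, 3 were detected, led by Mir449a at 2135 and 1726 CPM and Mir34c at 1313 and 1385 CPM, so the leading members of both lists had levels of the same order. Mir449b, with 3 and 1 counts, and Mir449c, with 18 and 4, were not detected. MicroRNAs of other epithelia held 0.0162% and 0.0171%, with 5 of 7 genes detected and Mir203 in the lead at 109 and 64.3 CPM. Mir200c stood at 15.9 and 51.1 CPM, and Mir200a at 3 and 15 counts. MicroRNAs of sensory organs and the eye, where Mir204 and Mir211 are also made, held 0.00310% and 0.00441%. Mir184, Mir183 and Mir182 ran between 6.75 and 17.4 CPM, and Mir96 had 0 counts in both libraries.

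Neuronal microRNAs, of the labelled tissue, were all detected, 8 of 8, with 2.73% and 3.02% of the sense counts. Reads with more than 1 matching place were left out here too. The list holds the paired genes Mir128-1 with Mir128-2 and Mir138-1 with Mir138-2, so its share and summed level may be too low. Mir132, which follows neuronal activity, led at 8514 and 7545 CPM. Vessel wall microRNAs, 3 of 3 detected, held 1.18% and 1.11%, and red cell microRNAs, 3 of 3 detected, held 0.00555% and 0.00643%. The summed level of the 7 genes was 2903 CPM in replicate 1, against 3212 CPM in replicate 2, that of the neuronal list 27269 and 30235 CPM, and that of the vessel wall list 11756 and 11138 CPM. Whether any of these cell types has a part in the levels of the 7 genes was not tested, and Htr2c and Trpm3 are known from neurons as well as from choroid plexus.

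**Figure D5:**
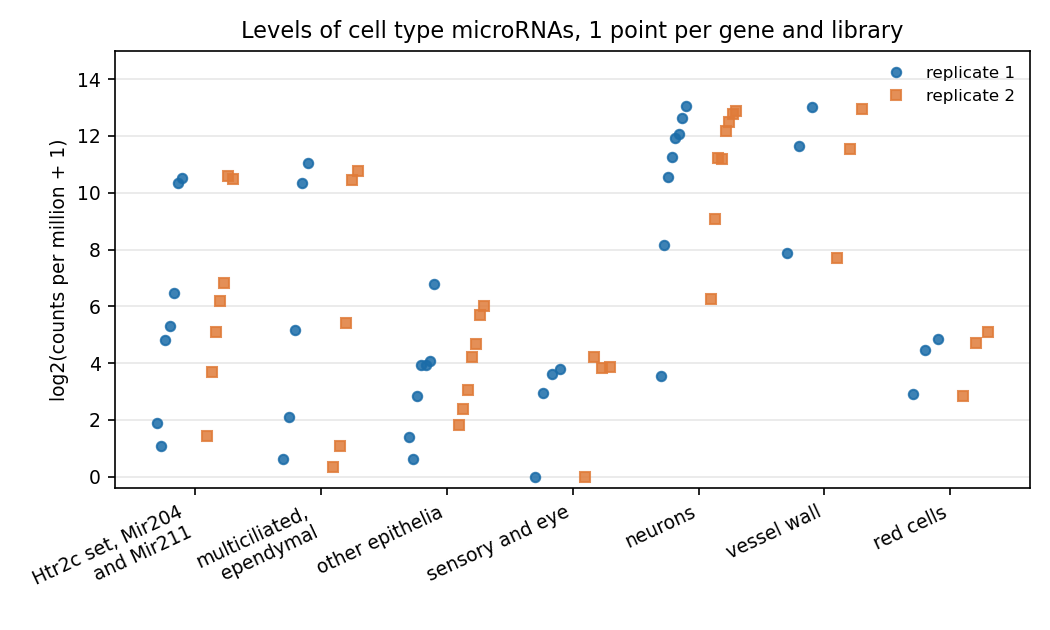
Each point is 1 gene in 1 library on the log2(CPM + 1) scale, grouped by cell type list, with circles for replicate 1 and squares for replicate 2. The upper points of the 7 described genes and of the multiciliated list stand at similar levels, below the upper neuronal and vessel wall genes and above all genes of the other epithelia, sensory and red cell lists.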

How the data were processed

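The authors deposited 1 table of raw read counts per microRNA gene for each of the 2 libraries, not pooled. Per the deposited file notes, genes were those of GENCODE M21 on mm10. No aligner or counting program is named in the labels or file notes. The strand column with the larger total on gene rows was taken as sense. The 4 rows of reads without a gene (63.6% of 15058588 reads in replicate 1 and 62.4% of 9483409 in replicate 2) entered neither library sizes nor tests. All 2202 gene identifiers matched GENCODE M21. A chi-square statistic of 274 per gene showed that the libraries were not copies.

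CPM, shares and ratios were computed from sense counts, and ratios added 0.5 counts. Libraries were scaled with TMM factors of edgeR 4.0.16 (0.979 and 1.02). No edgeR quasi-likelihood test was run, since there is no second group to contrast, and setting the libraries against each other leaves no residual degrees of freedom. The binomial test (scipy 1.17.1) was tested on simulated data with counting error only. Folding used ViennaRNA 2.7.2. The named genes are the 7 members, other microRNA genes in the same hosts, genes that share a seed, genes on the opposite strand, the 2 nearest genes in level and the marker lists. Members and lists were chosen with earlier results of these data known. DESeq2 1.42.0 size factors, library totals, unstranded counts and other minimums were alternatives.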

Additional observations from a re-analysis of the deposited data

How the results depend on the processing

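The share of the 7 genes, 0.306% of the sense counts, was 0.113% with all reads as the denominator. By the same change the share of the Htr2c microRNAs was 0.0602% and that of Mir204 with Mir211 0.0529%, since reads without a gene then count in the total. In counts without regard to strand, which leave out genes annotated on both strands from the total, the Htr2c share was 0.173%, while the counts of the 7 genes were the same. Leaving out each replicate in turn gave 0.290% to 0.321% for the 7 genes, 0.160% to 0.165% for the Htr2c microRNAs, 0.130% to 0.156% for Mir204 with Mir211 and 86.0% to 90.4% for the part of Mir1298 in Htr2c, and 6 members passed the minimum in either library alone. Without replicate 2 the level of Mir1912 was 1.10 CPM and without replicate 1 it was 11.8 CPM. The call of Mir1298 between the libraries was lost with library totals (exact binomial test, adjusted p = 0.368) and ranged from 0.000314 to 0.368 over its alternatives, and the calls of Mir448, Mir1264 and Mir204 and their direction were the same under all alternatives run. The number of genes called between the libraries ran from 221 of 267 tested, at 100 counts in each library, to 288 of 817. The latter was at 1 count in either library, and the main setting gave 263 of 429. No paired analysis was possible because the series has 1 group. Depth limits Mir211 and Mir1912, whose levels rest on 6 to 42 counts per library.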
